A study of Mus musculus with 8 samples.

Results

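The Bcl2 family genes described here are 10 regulators of mitochondrial cell death: Bcl2, Bcl2l1 (Bcl-xL), Mcl1, Bax, Bak1, Bad, Bid, Bbc3 (Puma), Pmaip1 (Noxa) and Bcl2l11 (Bim). They were chosen by gene name, taking every non-control probe of the array that carried one of these 10 names. This gave 14 of 39429 probes and 10 of 30222 gene names, with 2 probes each for Bcl2l1, Mcl1, Bad and Bcl2l11. The 2 probes of a gene share its name and are not replicates of a condition, so each was described on its own. Those of Bcl2l11 are annotated to different transcript records. No probe that RefSeq assigns to a member was missed by the gene name.

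RNA was measured in NMuMG-NT2197 cells, a derivative of the mouse mammary epithelial line NMuMG, on 8 two-colour Agilent arrays. The R175Q group (n = 4) carried a pMSCV/hygro vector with a mutant ShcA cDNA, in which glutamine replaces arginine in the phosphotyrosine-binding (PTB) domain. The wild-type group (n = 4, titled nT in the labels) carried the same vector with the wild-type ShcA cDNA, so both groups expressed an introduced ShcA. ShcA is an adaptor protein that links activated receptor tyrosine kinases to downstream signalling, and the series title names its PTB domain as the subject. The labels do not say whether a group was 1 clone or a pool, nor whether replicates came from separate cultures, so p-values measure only the spread between these samples. Each sample was labelled with Cy3 and hybridised against a common reference labelled with Cy5, which one label calls mouse and the labelling protocol calls human. The protocol also speaks of microdissected material and of RNA amplified linearly before labelling.

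Proteins of this family decide whether the outer membrane of the mitochondrion is permeabilised, which releases cytochrome c and activates caspases. Bax and Bak1 form the pores, Bcl2, Bcl2l1 and Mcl1 hold them in check, and the BH3-only proteins Bad, Bid, Bbc3, Pmaip1 and Bcl2l11 antagonise the guardians or activate the pore formers. In the mammary gland the family is known for its part in lumen formation and in the loss of alveolar cells after lactation. Many members are also regulated by phosphorylation, cleavage or degradation of the protein, which an RNA array does not measure.

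The probes are 60 bases long, and 4 are printed in the sense direction because they lie within protein-coding sequence and let the part of the transcript that was measured be read. They are in lower case, and the capitals in Bcl2l11 mark the codons of a glycine and an aspartate, the pair at the core of a BH3 motif.
Bcl2 A_51_P380013: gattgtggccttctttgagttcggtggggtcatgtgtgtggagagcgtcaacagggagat
Bcl2l1 A_52_P510877: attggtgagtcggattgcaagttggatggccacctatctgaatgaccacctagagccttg
Bad A_65_P16603: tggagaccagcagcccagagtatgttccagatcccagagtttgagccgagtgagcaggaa
Bcl2l11 A_51_P484880: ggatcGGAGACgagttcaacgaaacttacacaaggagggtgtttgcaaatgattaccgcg

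By the array's own mm9 coordinates the Bcl2 probe lies at chr1:108608970-108609029 on the minus strand. The printed Bcl2l1 probe lies at chr2:152655185-152655244 on the minus strand and the other, A_55_P1974877, at chr2:152606404-152606463. Mcl1 was measured at chr3:95466855-95466914 (A_51_P238786) and chr3:95465543-95465602 (A_52_P93933), Bax at chr7:52717122-52717181, and Bak1 at chr17:27156807-27156866. The Bad probes lie at chr19:7016918-7017403 (A_65_P16603) and chr19:7026323-7026382 (A_55_P1962234), Bid at chr6:120843464-120843523, and Bbc3 at chr7:16903403-16903462. The Bcl2l11 probes lie at chr2:127972893-127983988 (A_51_P484880) and chr2:127954736-127955417 (A_52_P348214). Those 2 intervals and that of Bad A_65_P16603 are longer than 60 bases, so these 3 probes bridge a gap in the genome. No gene model of this build was used here, so the other probes were not placed in exons or untranslated regions.

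Unless stated otherwise, values are log2 of Cy3 (the sample) over Cy5 (the common reference), corrected for background and normalised by loess within each array. A positive value means more signal in the cells than in the reference, and values of different probes are not levels of RNA that can be set against each other. The R175Q minus wild-type difference was tested with limma over 22849 probes with Benjamini-Hochberg adjustment and a threshold of 0.05. Between 53.7% and 63.0% of probes stood well above background in Cy3 on an array, and none reached saturation. Precision is limited by having 4 arrays a group. The arrays lay on 4 slides, 3 of which held both groups. All 14 member probes were tested, and 13 stood well above background on all 8 arrays. In bulk RNA of this kind, fewer cells of a type and less RNA per cell cannot be told apart.

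None of the 14 member probes differed between R175Q and wild-type cells at an adjusted p under 0.05. Over all probes tested, 18.7% passed that threshold, 8.96% (2048 probes) higher in R175Q cells and 9.73% (2223 probes) lower. With median centring in place of loess that split was 2183 higher and 1514 lower. At an unadjusted p under 0.05, 2 of the 14 passed, Bid and Bcl2l11 A_52_P348214, against 30.8% of all probes. The member differences ranged from -0.16 to 0.25 on the log2 scale, with 8 positive and 6 negative and a median of 0.08, beside a median of -0.02 over all probes. A miss of the threshold does not show that the RNA was equal. The 95% intervals of the 14 differences, each taken on its own in the main setting, ran from 0.783-fold to 1.49-fold. This range does not bound how large a change could have gone unseen. The dim probe Bcl2l11 A_52_P348214, at 0.18 in the main setting, read 0.45 ± 0.14 (SE) with the scanner software's ratio. With the usual normexp background it read 0.07 ± 0.05.

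**Figure D1:**
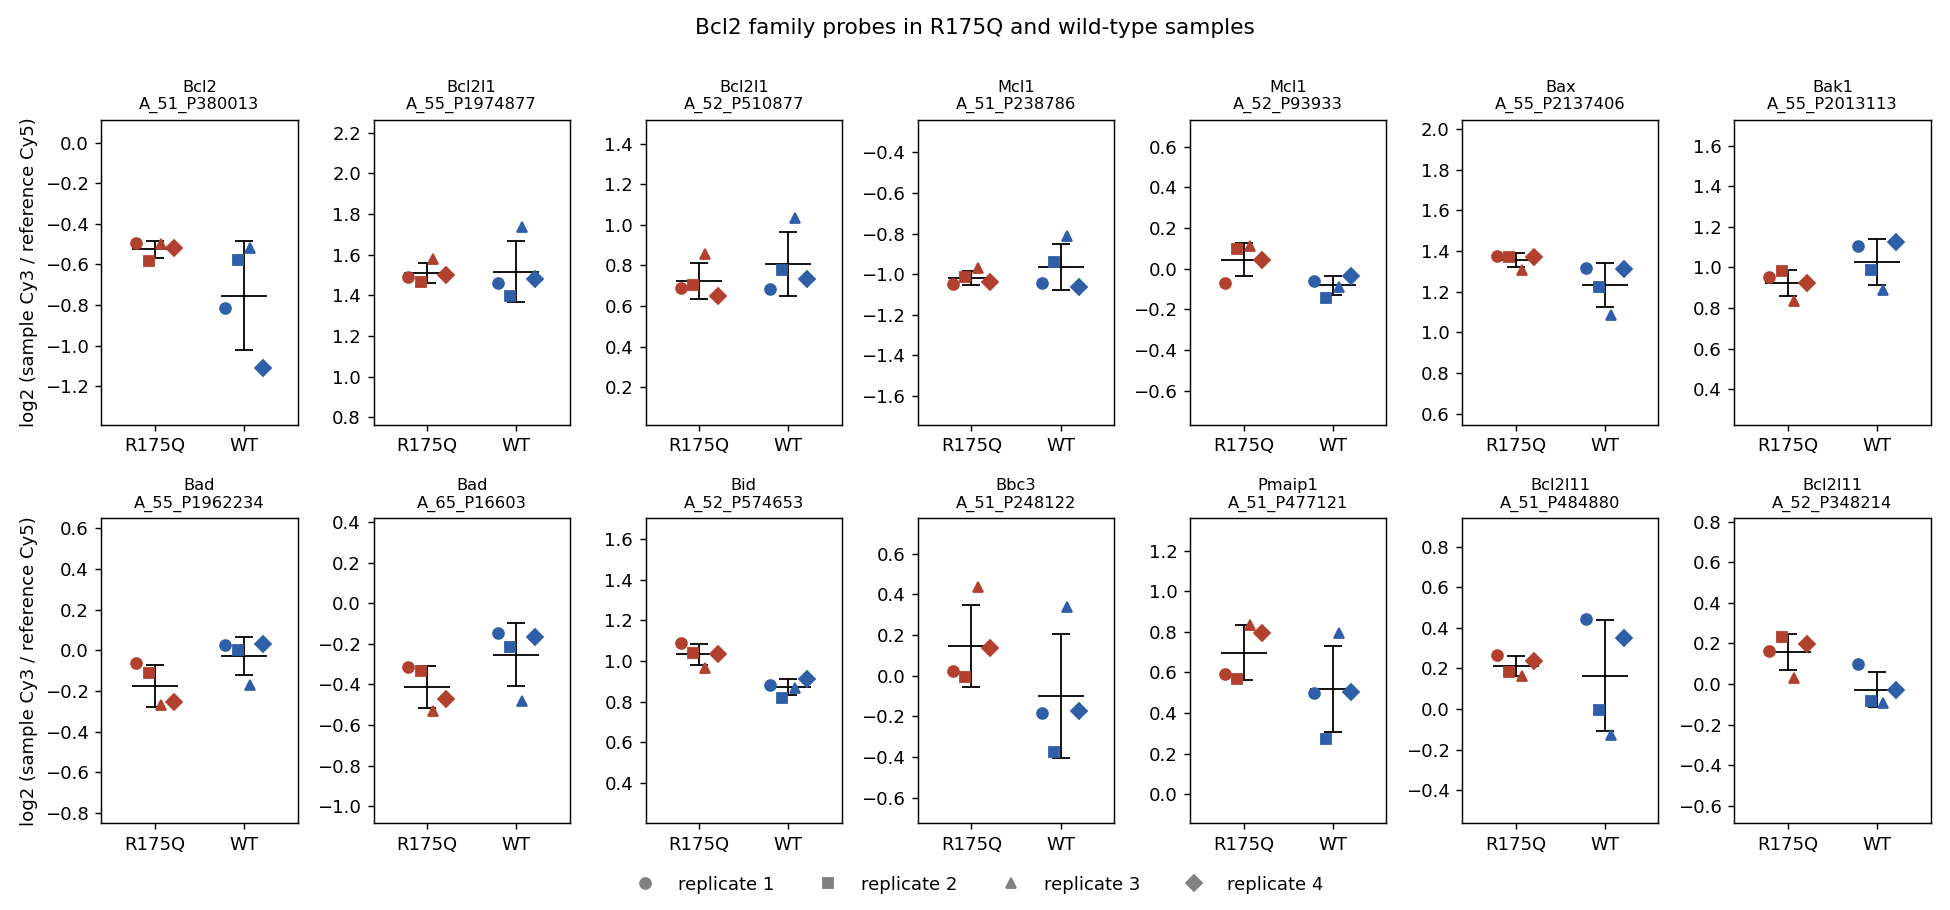
Log2 ratio of Cy3 over Cy5 of each member probe, 1 point per sample, with R175Q samples (red) left of wild-type samples (blue), the mean and SD of each group (n = 4) as bars, and replicates by marker shape. The Bid samples of the 2 groups do not overlap, from 0.97 to 1.09 in R175Q cells and from 0.82 to 0.91 in wild-type cells, while every other member probe overlaps.

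The guardians of the mitochondrion did not pass the test, and their 5 probes went both ways. Bcl2, which sequesters pore formers and BH3-only proteins, had log2 ratios of -0.50, -0.59, -0.50 and -0.52 in R175Q cells, against -0.81, -0.58, -0.52 and -1.11 in wild-type cells. The R175Q samples lay close together, and the wild-type samples spread from within their range to well under it. The difference was 0.23 ± 0.12 (SE; 95% interval -0.03 to 0.49; limma adjusted p = 0.215). Its size on the slides that held both groups was 0.23, 0.05 and 0.59.

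Bcl2l1, the gene of Bcl-xL, gave close values in both groups. Its probe A_55_P1974877 read 1.49, 1.47, 1.58 and 1.502 in R175Q cells, against 1.46, 1.40, 1.74 and 1.48 in wild-type cells. The difference was -0.01 ± 0.08 (95% interval -0.18 to 0.16; limma adjusted p = 0.952), with the third sample of each group the highest. Its other probe, A_52_P510877, read 0.69, 0.71, 0.85 and 0.65 in R175Q cells, against 0.68, 0.78, 1.03 and 0.73 in wild-type cells. There the difference was -0.08 ± 0.08 (95% interval -0.27 to 0.10; limma adjusted p = 0.565), and again the third samples were the highest.

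Mcl1, a short-lived guardian that binds Bak1 and Bcl2l11, was read by 2 probes whose differences had opposite signs. Probe A_51_P238786 read -1.05, -1.01, -0.97 and -1.04 in R175Q cells, against -1.04, -0.94, -0.81 and -1.06 in wild-type cells, with a difference of -0.05 ± 0.07 (95% interval -0.20 to 0.10; limma adjusted p = 0.652). Probe A_52_P93933 read -0.07, 0.10, 0.11 and 0.04 in R175Q cells, against -0.06, -0.15, -0.09 and -0.03 in wild-type cells. Here 3 R175Q samples lay above every wild-type sample and the fourth lay among them, and the difference was 0.13 ± 0.06 (95% interval -0.01 to 0.26; limma adjusted p = 0.186). Neither interval excluded 0.

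The pore formers differed in sign and neither passed. Bax, which moves to the mitochondrion on activation, read 1.38, 1.37, 1.30 and 1.37 in R175Q cells, against 1.31, 1.23, 1.08 and 1.31 in wild-type cells. Only R175Q replicate 3 reached down to the wild-type values, and the difference was 0.12 ± 0.07 (95% interval -0.02 to 0.27; limma adjusted p = 0.241). Bak1, which sits in the mitochondrial membrane, read 0.95, 0.98, 0.84 and 0.93 in R175Q cells, against 1.11, 0.99, 0.89 and 1.13 in wild-type cells. Its difference was -0.10 ± 0.07 (95% interval -0.26 to 0.05; limma adjusted p = 0.358) and was negative on all 3 slides that held both groups.

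Of the 7 BH3-only probes, 5 had a positive difference and the 2 of Bad a negative one, and none passed. Bad, which survival kinases inactivate by phosphorylation, read -0.06, -0.11, -0.27 and -0.25 with probe A_55_P1962234 in R175Q cells, against 0.02, -0.00048, -0.17 and 0.03 in wild-type cells. The difference was -0.15 ± 0.07 (95% interval -0.31 to 0.01; limma adjusted p = 0.204). Its other probe, A_65_P16603, read -0.32, -0.34, -0.53 and -0.47 in R175Q cells, against -0.15, -0.21, -0.48 and -0.17 in wild-type cells, a difference of -0.16 ± 0.09 (95% interval -0.35 to 0.03; limma adjusted p = 0.246). Both probes gave a negative difference on each of the 3 slides, and in both the wild-type replicate 3 lay down among the R175Q samples. Leaving out each sample in turn gave -0.24 to -0.12 for A_65_P16603. Only the fit without wild-type replicate 3 passed, at -0.24 (limma adjusted p = 0.0336). Dropping a sample that lies against a difference enlarges it, so this call adds no support. That fit called 5219 of 22862 probes, against 4271 in the main setting.

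Bid, which death receptors activate through cleavage by caspase-8, was the 1 member whose groups did not overlap. It read 1.09, 1.04, 0.97 and 1.04 in R175Q cells, against 0.88, 0.82, 0.87 and 0.91 in wild-type cells. Every R175Q sample lay above every wild-type sample, as did 11.2% of all probes, and groups lay apart in either direction in 23.4%. The difference was 0.16 ± 0.05, or 1.12-fold (95% interval 0.04 to 0.28; unadjusted p = 0.0124; limma adjusted p = 0.061). It was 0.16, 0.12 and 0.12 on the slides that held both groups. The call turned with 2 settings: scaling between arrays gave 0.18 (limma adjusted p = 0.0393), and the Cy3 channel alone gave 0.30 (limma adjusted p = 0.0149).

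Bbc3 and Pmaip1, both known targets of p53, spread widely within each group. Bbc3 A_51_P248122 read 0.02, -0.01, 0.43 and 0.14 in R175Q cells, against -0.18, -0.38, 0.34 and -0.18 in wild-type cells, with a difference of 0.25 ± 0.15 (95% interval -0.09 to 0.58; limma adjusted p = 0.305). Replicate 3 was the highest in both groups. Leaving out each sample in turn gave Bbc3 differences of 0.15 to 0.39. Only the fit without wild-type replicate 3, which lay against the difference, passed, at 0.39 (limma adjusted p = 0.0333). Pmaip1 read 0.59, 0.57, 0.83 and 0.80 in R175Q cells, against 0.50, 0.27, 0.80 and 0.50 in wild-type cells. Its difference was 0.18 ± 0.11 (95% interval -0.06 to 0.42; limma adjusted p = 0.311), with only wild-type replicate 3 up among the R175Q samples.

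Bcl2l11, the gene of Bim, is restrained by ERK signalling at the level of the protein and of the RNA. The probe over the BH3 codons, A_51_P484880, read 0.26, 0.18, 0.16 and 0.24 in R175Q cells, against 0.44, -0.0033, -0.13 and 0.35 in wild-type cells. The R175Q samples lay inside the wild-type range, and the difference of 0.05 ± 0.12 (95% interval -0.22 to 0.31; limma adjusted p = 0.837) had no constant sign across slides. The other probe, A_52_P348214, read 0.16, 0.23, 0.03 and 0.20 in R175Q cells, against 0.10, -0.08, -0.09 and -0.03 in wild-type cells. Its difference was 0.18 ± 0.07 (95% interval 0.03 to 0.33; unadjusted p = 0.0217; limma adjusted p = 0.091). That spot was dim, well above background on 2 R175Q and 2 wild-type arrays only. The same probe passed in 1 of 22 other settings, the authors' deposited values, at 0.24 (limma adjusted p = 0.0408). With the usual normexp background it read 0.07 (limma adjusted p = 0.468).

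**Figure D2:**
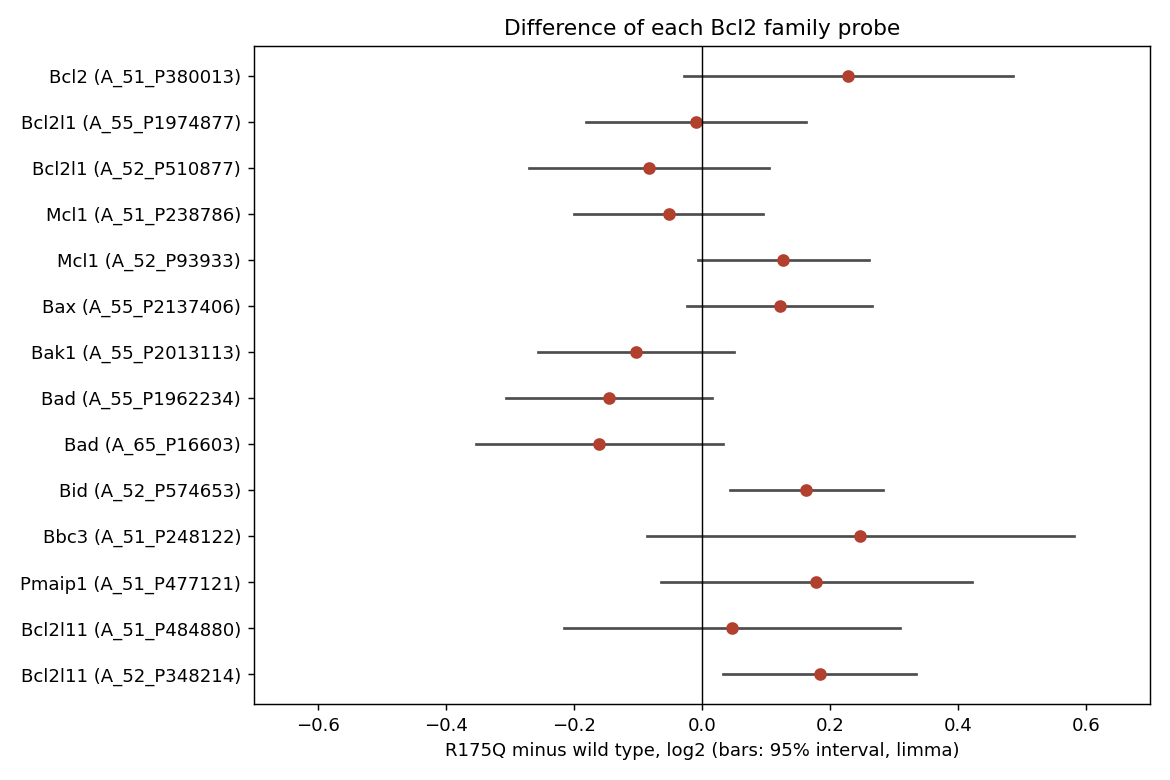
R175Q minus wild-type difference of each member probe on the log2 scale, with its 95% interval from limma (n = 4 samples a group). The intervals of Bid and of Bcl2l11 A_52_P348214 lie above 0, and the other 12 cross it.

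Most probes of the array, and most member probes with them, varied more among wild-type than among R175Q samples, so this direction is not particular to the members. The SD within R175Q was the smaller in 11 of 14 member probes (78.6%), and in 64.6% of all probes. The median SD of the members was 0.073 in R175Q and 0.13 in wild-type cells, beside 0.091 in R175Q and 0.12 in wild-type cells over all probes. Much of the members' spread lay in replicate 3. R175Q replicate 3 was the highest or lowest of its group in 13 of 14 member probes, as it was in 56.7% of all probes, and wild-type replicate 3 in 12 of 14, against 66.6% of all probes. Both were at the same end in 11 of 14, against 32.1% of all probes. They were highest for both Bcl2l1 probes, Mcl1 A_51_P238786, Bbc3 and Pmaip1, and lowest for Bax, Bak1, both Bad probes and both Bcl2l11 probes. These 2 samples shared slide 3 with wild-type replicate 2, which stood with R175Q replicate 3 at the same end in 1 of 14. The part of the slide in this pattern was not tested.

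**Figure D3:**
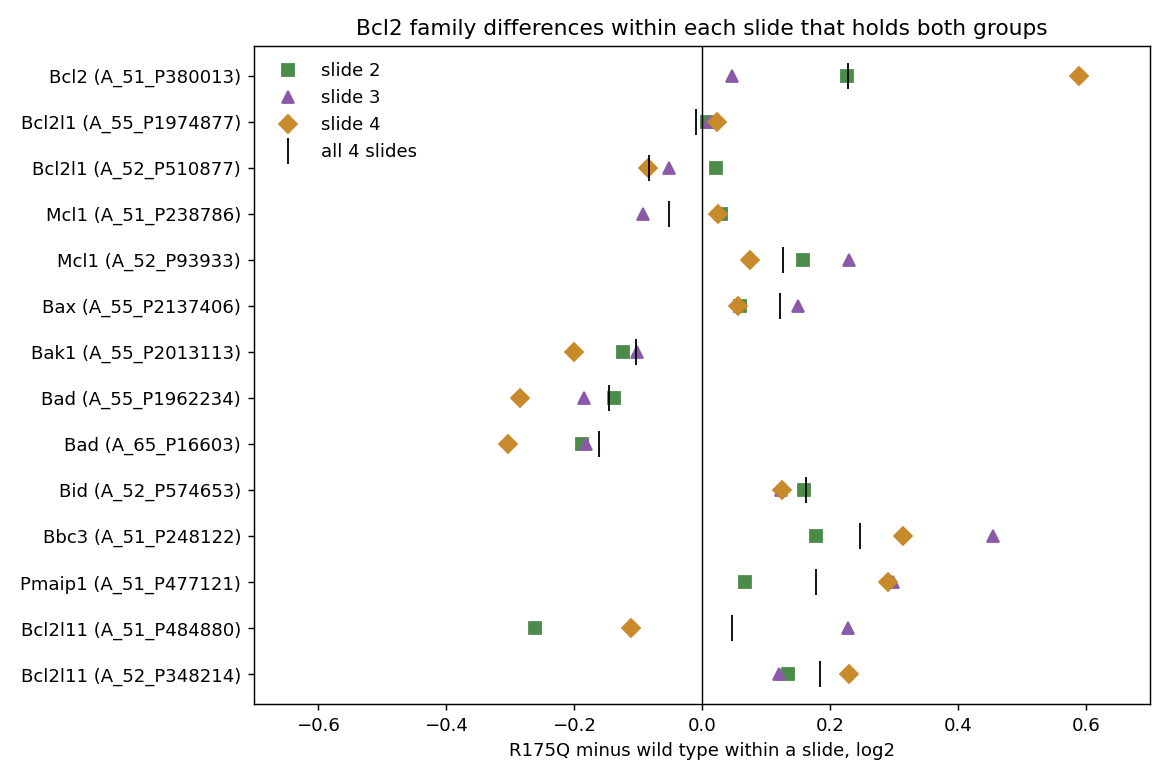
R175Q minus wild-type difference of each member probe within each of the 3 slides that held both groups, on the log2 scale. The sign was the same on all 3 slides for 11 of 14 probes, and Bcl2l11 A_51_P484880 ran from -0.26 to 0.23. The share over all probes was not computed, so the count is not read as a trait of the members. It includes Bcl2l1 A_55_P1974877, at 0.007, 0.011 and 0.024 within the slides, though its difference over all samples was -0.009.

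Other genes of the same death pathway were read from lists chosen with earlier results of these data known, each gene by its brightest probe tested. Their counts are to be read beside the 18.7% of all probes that passed in either direction: a share near it, such as 3 of 19 or 3 of 17, sets no list apart. Among further Bcl2 family genes, 10 of 16 were tested: 3 were higher in R175Q cells, 2 were lower and 5 did not pass, with a median difference of 0.17. The count of higher genes and the median include Bcl2a1d, which met the filter mainly through the group in which it was brighter. Bnip3, a mitochondrial BH3-like protein of mitophagy induced by hypoxia, read -1.98, -1.97, -2.10 and -1.84 in R175Q cells, against -2.93, -3.20, -2.45 and -3.05 in wild-type cells. The groups lay apart, with a difference of 0.93 ± 0.14 (limma adjusted p = 0.00126) and 3 of 3 probes higher. Its relative Bnip3l rose by 0.74 ± 0.10 (limma adjusted p = 0.000864), with 4 of 4 probes higher.

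Bcl2l15, a distant relative within the family, read 0.88, 0.82, 1.19 and 0.91 in R175Q cells, against 2.18, 1.71, 2.07 and 2.09 in wild-type cells. It fell by 1.06 ± 0.11 on the log2 scale (limma adjusted p = 0.000154), and all 3 of its probes were lower. Bcl2l14 fell by 0.48 ± 0.09 (limma adjusted p = 0.0052), a call lost with the usual normexp background (-0.43) and with the Cy3 channel alone (-0.44), while the scanner's ratio gave -0.94. Bcl2a1d, a guardian related to Bcl2 and the third gene counted as higher, was well above background on all 4 R175Q arrays and on 1 wild-type array. It met the filter mainly through the group in which it was brighter, so its fitted 0.55 ± 0.12 (limma adjusted p = 0.00904) is not a measured size and supports nothing about the list. It also has near-identical paralogs that the probe may share, and it read -0.18 with the usual normexp background and 1.68 with the scanner's ratio. The 5 that did not pass were named after their values were seen: Bmf at 0.35 (limma adjusted p = 0.105), Bcl2l2 at 0.22 (limma adjusted p = 0.0512), Bok at 0.11, Bcl2l12 at -0.06 and Bcl2l13 at -0.06. Only 1 of the 2 tested probes of Bcl2l2 had a positive difference.

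Downstream of the pore, 1 of 19 tested genes of the apoptosome, caspases and their inhibitors was higher and 2 were lower, with a median difference of 0.02. Htra2 did not pass by its brightest probe, though 1 of its 2 tested probes was lower. Aifm1, a mitochondrial flavoprotein, fell by 0.26 ± 0.07 (limma adjusted p = 0.0268), and the inhibitor of apoptosis Birc3 rose by 0.29 ± 0.08 (limma adjusted p = 0.0392). Of 24 other settings, 1 of which repeats the main fit by construction, Aifm1 passed in 15 and Birc3 in 11. Aifm1 lost its call without R175Q replicate 1 or 3 or wild-type replicate 1, 2 or 4, and Birc3 without any 1 sample other than wild-type replicate 3.

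Upstream of Bid, 2 of 9 tested genes of death receptor signalling were higher by their brightest probe and none lower, with a median difference of 0.11. Cflar did not pass by its brightest probe, though 1 of its 4 tested probes was lower. Ripk3, a kinase of necroptosis, read -1.71, -1.81, -1.71 and -1.81 in R175Q cells, against -2.65, -2.85, -2.50 and -2.74 in wild-type cells. It rose by 0.92 ± 0.08 (limma adjusted p = 3.53e-05). The TRAIL receptor Tnfrsf10b rose by 0.17 ± 0.05 (limma adjusted p = 0.0388), a call that held in 7 of 24 other settings and was lost without any 1 sample other than wild-type replicate 3. With the usual normexp background Ripk3 did not pass.

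Among transcription regulators of family genes and p53 pathway genes, 2 of 17 tested were higher and 1 lower, with a median difference of 0.11. The p53 target Ccng1 fell by 0.45 ± 0.09 (limma adjusted p = 0.00493). Foxo3, a transcription factor that induces Bcl2l11 and Bbc3, rose by 0.35 ± 0.11 (limma adjusted p = 0.0427) in 1 of its 2 probes. Stat5b, an activator of Bcl2l1 transcription, rose by 0.17 ± 0.05 (limma adjusted p = 0.0431), also in 1 of its 2 probes. Of 24 other settings, Foxo3 passed in 12 and Stat5b in 8. Stat5b lost its call without any 1 sample, and Foxo3 without any 1 other than wild-type replicate 2 or 3.

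Of the kinases, 14-3-3 proteins and ubiquitin enzymes that act on members, none of 19 tested was higher and 3 were lower, with a median difference of -0.06. By their brightest probes Mapk8 and Akt2 did not pass, though 1 of 3 tested probes of Mapk8 and 1 of 4 of Akt2 were lower. Rps6ka1 (Rsk1), a kinase that phosphorylates Bad, fell by 0.28 ± 0.06 (limma adjusted p = 0.00892). Ywhah, a 14-3-3 protein of the family that holds phosphorylated Bad in the cytosol, fell by 0.31 ± 0.07 (limma adjusted p = 0.00904). Usp9x, which removes ubiquitin from Mcl1, fell by 0.26 ± 0.08 (limma adjusted p = 0.0413), a call that held in 11 of 24 other settings and was lost without any 1 sample other than wild-type replicate 3 or 4. With the usual normexp background and slide as a block, none of the 16 calls in these 5 lists was kept.

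**Figure D4:**
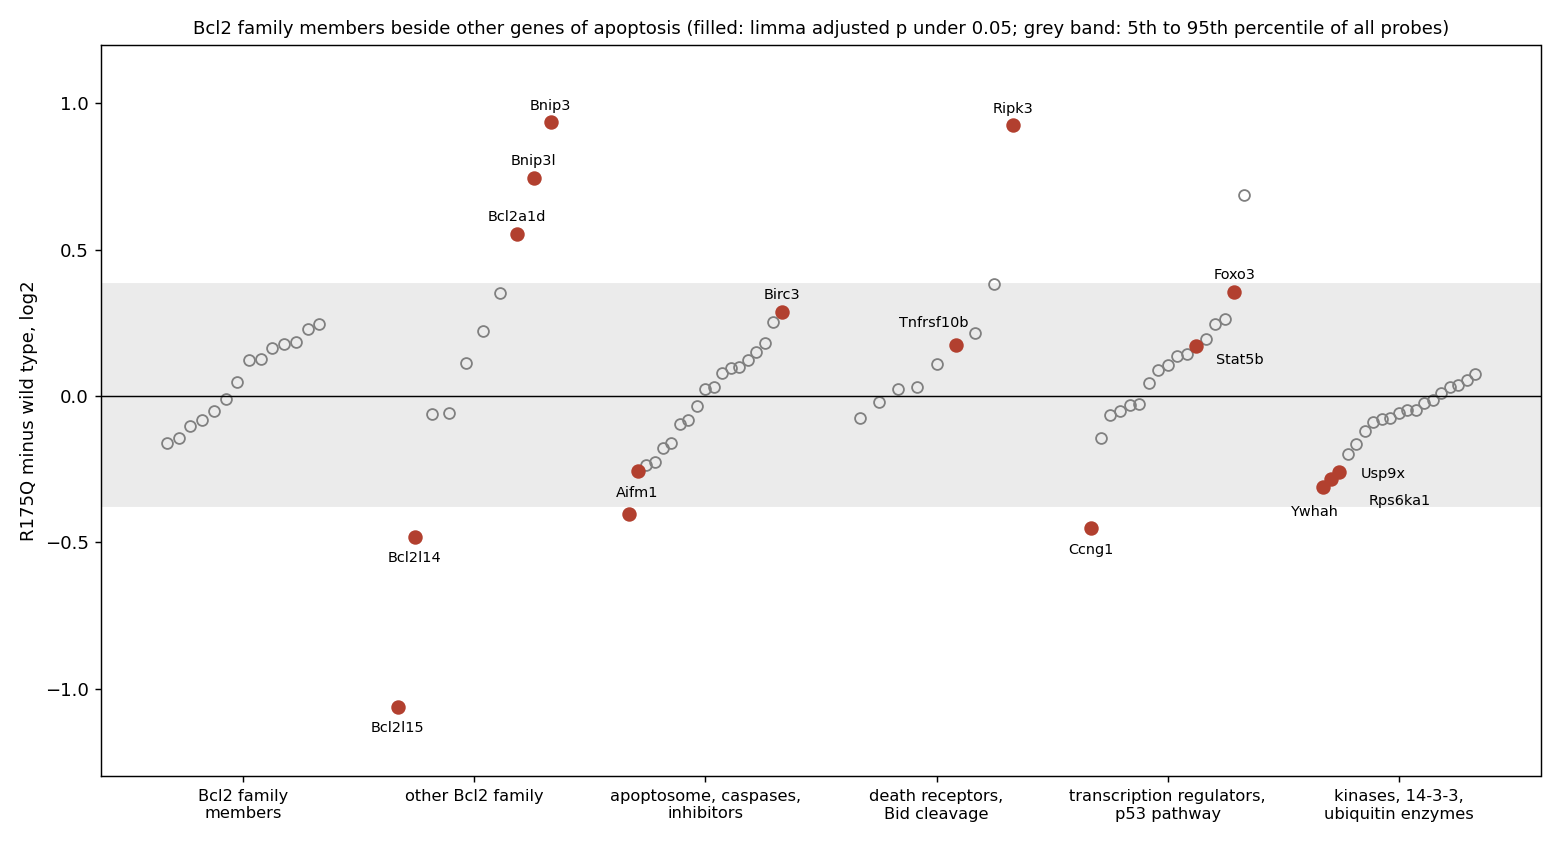
R175Q minus wild-type difference on the log2 scale of the 14 member probes and of the tested genes of the 5 lists, ordered by size within each list, with limma adjusted p under 0.05 as filled points, 1 of them without a label, and the 5th to 95th percentile of all probes in grey. The members lie between -0.16 and 0.25, inside the grey band from -0.38 to 0.38. Genes outside it include Bnip3, Bnip3l, Ripk3, Bcl2l15, Bcl2a1d, Bcl2l14, Ccng1 and, without passing the threshold, Ddit3.

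Markers of cell types were read beside these lists. All 7 epithelial markers stood above background on all 8 arrays, and 3 of 7 were lower in R175Q cells, among them Krt7 by -1.89 ± 0.06 (limma adjusted p = 1.55e-07). Their summed Cy3 signal was 294455 to 378874 in R175Q cells and 358248 to 420747 in wild-type cells. This sum and those below are of background-corrected Cy3 signal, neither divided by the reference nor normalised. Differences in brightness between arrays therefore enter them. Of 6 fibroblast markers tested, 3 were higher, and the summed signal of the 7 on the array was 1535 to 1779 in R175Q cells and 943 to 1256 in wild-type cells, with Lum never above background. Vwf was higher among 3 endothelial markers tested, while Cdh5 and Tek never stood above background. Endothelial signal summed to 406 to 522 in R175Q cells and 305 to 419 in wild-type cells. Mrc1 was lower among 6 macrophage markers, whose sum was 40462 to 49687 in R175Q cells and 34626 to 47512 in wild-type cells. None of 2 lymphocyte and 1 adipocyte markers tested passed, with Ms4a1, Adipoq, Plin1 and Cfd never above background. With the usual normexp background the calls of all 3 fibroblast markers were lost (Col1a2 at 0.09, Dcn at -0.042 and Col3a1 at -0.28), as were those of Vwf (0.23, against 0.85 in the main setting) and Mrc1 (-0.12, against -0.59). Krt7 kept its call there, and Krt8 did not. The part of these shifts in the values of the members and of the pathway genes was not tested.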

How the data were processed

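RNA of 4 R175Q and 4 wild-type samples was measured on 8 two-colour arrays of 44397 spots, 1377 of them controls. The authors' scanner files hold spot and local background intensity per channel and a log10 ratio of Cy5 over Cy3, made with Agilent Feature Extraction 9.5.3.1 per the file headers, with flags for spots above background or unreliable. The deposited value table holds log2 ratios. Set against the scanner ratios turned to Cy3 over Cy5, its columns correlated at 0.902 to 0.941, so it runs Cy3 over Cy5, while its scaling and centring stay unknown. Its column medians were 0.0585, 0.0562, 0.0607 and 0.0546 in R175Q samples and 0.0524, 0.0617, 0.0592 and 0.0556 in wild-type samples. The labels name a common reference and the dyes, and the direction was taken from them.

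Local background was subtracted, and normexp with offset 50 used the mean and SD of the negative control spots not marked unreliable, 137 to 146 of 153 on each array. This background was made the main setting with the results of both corrections known: the usual normexp fit placed the background between -690 and -0.369, while the negative controls had medians of 10.3 to 22.4. Ratios were then normalised by loess within arrays, leaving controls and unreliable spots out, and spots of 1 probe were averaged. Of the probes, 22971 were kept, those whose Cy3 spot was flagged as well above background on 4 arrays or more, and 122 with an unreliable value were dropped, which left 22849. Groups were compared with limma 3.58.1 in R 4.3.3 (statmod 1.5.0), adjusted by Benjamini-Hochberg over all of these probes. The steps were tested on simulated data. RefSeq names (GRCm38.p6, used for names only) were found for 26761 of 28389 probes with a RefSeq accession. They differed from the file's name in 2878. The text names all members, the list genes past the threshold (at most 6 a list, by unadjusted p) and otherwise the 2 with the lowest p, apart from 1 list gene and 1 marker that are counted but not reported here by name. Members, lists and markers were chosen with earlier results of these data known. Bcl2a1a and Bcl2a1b had no probe of that name, and Bcl2a1c, Bcl2l10, Bik, Hrk, Fasl, Tnfsf10 and Foxo4 were not tested because they did not pass the filter. Alternatives covered background, normalisation, filter, slide, replicate number and leaving out each sample. The sequence of Pmaip1 is not reported here. No column of the value table was left unmapped (0).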

Additional observations from a re-analysis of the deposited data

Results flagged for a closer look

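In 70 groups of 4 samples checked, 1 sample stood apart from the other 3 of its group in 5 cases by Dixon's test. Chance alone flags about 1 in 20 such groups. Among members, Bax was 1.30 in R175Q replicate 3, under the other R175Q samples, and Bad A_55_P1962234 was -0.17 in wild-type replicate 3, under the other wild-type samples. Among pathway genes, Ccng1 was 0.41 in R175Q replicate 3, Aifm1 was 1.19 in wild-type replicate 3 and Stat5b was -0.22 in wild-type replicate 3, each under the rest of its group. In all 5 cases the sample was replicate 3, and both replicate 3 samples lay on slide 3. The cause was not tested.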

How the results depend on the processing

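Over 24 alternatives, the member probes gave 331 values, of which 325 kept their side of the threshold and 6 passed it, and none that passed in either setting changed sign. The number of member probes called higher was 1 with scaling between arrays (Bid), with the Cy3 channel alone (Bid), with the deposited value table (Bcl2l11 A_52_P348214) and with the replicate block (Bbc3, 0.25, limma adjusted p = 0.0303), against 0 in the main setting. Of all probes, scaling between arrays called 2065 of 22849 higher, the Cy3 channel alone 1646 of 22849, and the deposited values 1942 of 22971. Beside these shares, 1 of 14 does not set the members apart. Leaving out 1 sample in turn gave 0 to 1 higher and 0 to 1 lower, both calls without wild-type replicate 3. Same-numbered samples correlated in their deviations at 0.30, 0.02, 0.55 and 0.12, so the numbers were not taken as pairs, and not every sample correlated best with its own number. The replicate block called 2495 probes higher and 2630 lower.

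The usual normexp fit called 483 probes higher and 429 lower, and 2 pathway genes higher and 5 lower, against 8 and 8. With slide as a block as well it called 0 higher and 1 lower of all probes by limma, with 2612 at an unadjusted p under 0.05, and 0 higher and 0 lower pathway genes, so every pathway call of the text was lost there. Pathway genes called higher were 5 with the scanner's ratio, 4 with no filter on dim probes, 4 with slide as a block and 4 with scan day as a block, the last chosen after seeing the data. Birc3, Tnfrsf10b, Foxo3, Stat5b and Usp9x lost their call with slide as a block. Leaving out 1 sample gave 1460 to 2528 probes higher and 1473 to 2691 lower. The fewest higher came without R175Q replicate 2, the fewest lower without wild-type replicate 1, and the most of both without wild-type replicate 3. Of pathway genes, 4 to 10 were higher (10 without wild-type replicate 3, and 4 or 5 without any other) and 6 to 9 lower. With the usual normexp fit, without and with the slide block, Bcl2a1d turned to -0.18 and -0.26 and Col3a1 to -0.28 and -0.24, and Dcn turned to -0.042 without it. The cause was not tested. Quantile normalisation of brightness leaves ratios as they are by construction. Signal over background limits Bcl2l11 A_52_P348214 and Bcl2a1d.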

Other observations

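The 2 replicate 3 samples were both the highest of their groups in 3538 of 22849 probes tested. Among the regulators of family genes, 4 such genes are given here, picked after their values were seen, and no theme among them was tested. In the same list, Cdkn1a, Mdm2, Trp63 and Stat3 were also highest in replicate 3 of both groups. Ccng1, E2f1, Stat5a and Stat5b were lowest in replicate 3 of both. Ddit3 (Chop), a transcription factor that induces Bbc3 and Bcl2l11, was 1.24 in R175Q replicate 3, with the other R175Q samples at 0.35 to 0.67. It was 0.72 in wild-type replicate 3, with the other wild-type samples at -0.54 to -0.14. Sesn2, a stress-induced sestrin, was 0.94 in R175Q replicate 3 and 0.73 in wild-type replicate 3. Atf4, a transcription factor of the integrated stress response, was 0.20 in R175Q replicate 3 and 0.08 in wild-type replicate 3, each the highest of its group. Myc was 0.82 in R175Q replicate 3 and 0.74 in wild-type replicate 3, also the highest of each group. None of Ddit3, Sesn2, Atf4 and Myc passed the test between R175Q and wild-type cells. Of these, Ddit3 came nearest, at 0.69 ± 0.27 (limma adjusted p = 0.107).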
